A study of Homo sapiens with 16 samples.

Results

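Contractile genes of smooth muscle and myofibroblasts were followed in human kidney organoids by day of culture, by exposure to TNFα and by cell class. The 10 genes, ACTA2, TAGLN, CNN1, MYH11, ACTG2, MYL9, TPM1, TPM2, CALD1 and LMOD1, were chosen by name, with earlier results of these data known. All 10 were listed in each of the 3 bulk RNA-seq tables, which hold 20121, 27650 and 21093 genes, and in both single-cell matrices. The organoids were grown from UM77-2, a human embryonic stem cell line, so every library came from 1 line. Bulk RNA came from isolated spheroids collected without treatment at day 21 (D21), D25 and D29, with 1 library a day in set 1 and 2 libraries a day in set 2. A further bulk set of 4 libraries came from D25 organoids given 5 ng/ml recombinant human TNFα, an inflammatory cytokine, or its vehicle control (VC, buffered saline) for 24 h or 48 h, with 1 library for each treatment and time. Single cells came from whole wells rather than isolated spheroids, collected at D24 after 24 h with VC or 5 ng/ml TNFα, with 1 library each. An untreated D25 single-cell library was not used here.

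Smooth muscle cells shorten by sliding actin filaments along smooth muscle myosin, whereas myofibroblasts pull on smooth muscle actin mainly with non-muscle myosin. Both share much of this gene set, and MYH11 and LMOD1 are found mainly in mature smooth muscle. In the kidney these genes mark the muscle of arterioles, pericytes and mesangial cells, and ACTA2 is the usual marker of the myofibroblasts that lay down matrix in fibrosis. Many of them are switched on by serum response factor (SRF), which binds a DNA element called the CArG box and works with the coactivators MYOCD and the MRTFs.

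The genes fall into 3 groups by role. ACTA2 and ACTG2 encode smooth muscle actins, MYH11 the smooth muscle myosin heavy chain and MYL9 a regulatory myosin light chain. TPM1 and TPM2 encode tropomyosins, which lie along the actin filament in muscle and non-muscle cells, LMOD1 encodes leiomodin, which starts actin filaments, and CNN1 (calponin), CALD1 (caldesmon) and TAGLN (transgelin) encode proteins that bind actin and restrain or stabilise it. In GENCODE 44 on GRCh38, ACTA2 lies on the minus strand at chr10:88935074-88991339, ACTG2 on the plus strand at chr2:73892314-73919865, MYH11 on the minus strand at chr16:15703135-15857028 and MYL9 on the plus strand at chr20:36541497-36551447. TPM1 lies at chr15:63042620-63071915 (plus), TPM2 at chr9:35681992-35690056 (minus), LMOD1 at chr1:201896456-201946548 (minus), CNN1 at chr19:11538767-11550323 (plus), CALD1 at chr7:134744252-134970729 (plus) and TAGLN at chr11:117199370-117207464 (plus). Exons of 4 of these genes overlap exons of named genes on the other strand. ACTA2 shares 387 bases with FAS and 1638 with ACTA2-AS1, TAGLN shares 2233 with PCSK7, MYH11 shares 1063 with NDE1, and TPM1 shares 2645 with TPM1-AS. Whether reads were counted by strand was not given in the sources used here, and the coding sequences of the actins resemble each other, so a part of the reads of these genes may belong to a neighbour or a paralog.

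The 250 bases before the annotated start were searched for the CArG box (CC, then 6 bases that are A or T, then GG, which reads the same on both strands), because it is the element these genes are known to share. RefSeq promoters on GRCh38.p14 were matched for 7 of the 10 genes, with 12 start sites. TAGLN, MYH11 and MYL9 had no entry. An exact CArG box was found before the ACTG2 start alone among the 12 start sites (8.33%), as CCTTATATGG at -110 and CCTTTTTAGG at -73 (position of the first base), against 1.16% of all 35116 start sites. A window at most 1 letter off was found before starts of 4 genes, ACTA2, ACTG2, CALD1 and LMOD1, that is in 41.7% of the 12 start sites against 16.8% of all. For ACTA2 these windows were CCCTATATGG at -121 and CCTTGTTTGG at -71. Both smooth muscle actin promoters are shown, with exact boxes and windows 1 letter off in capitals, for ACTG2 at chr2:73892758-73893007 on the plus strand and for ACTA2 at chr10:88952774-88953023 on the minus strand. These matches describe the letters and are not evidence of binding.
ACTG2: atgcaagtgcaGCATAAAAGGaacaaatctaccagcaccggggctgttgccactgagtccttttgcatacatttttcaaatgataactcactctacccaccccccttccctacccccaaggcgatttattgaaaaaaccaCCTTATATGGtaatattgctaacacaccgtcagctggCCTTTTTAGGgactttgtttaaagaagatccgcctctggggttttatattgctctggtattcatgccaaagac
ACTA2: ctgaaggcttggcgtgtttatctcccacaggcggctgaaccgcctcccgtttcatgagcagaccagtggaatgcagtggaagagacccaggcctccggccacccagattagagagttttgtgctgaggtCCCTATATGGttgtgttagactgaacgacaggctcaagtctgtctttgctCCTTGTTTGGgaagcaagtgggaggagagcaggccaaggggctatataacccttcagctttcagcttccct

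Bulk libraries held 19073609 to 59246286 reads. In the single-cell data, 11906 cells with over 500 genes were kept from the VC library and 23160 from the TNFα library, with a median of 6358.5 and 2599 UMIs a cell, and 82 barcodes occurred in both libraries. Reads are given as CPM (counts scaled to a common library total), and tests were run on the deposited log2(CPM + 1) values. In bulk RNA, fewer cells of a type and less RNA per cell cannot be told apart. The labels do not say whether the 2 libraries of a day came from separate cultures, so p-values measure only the spread between these libraries, which may be technical.

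Compared per length at D29 in set 2, as mean CPM per kilobase of the canonical transcript, the tropomyosins and ACTA2 stood highest. TPM1 was at 306, TPM2 at 99.2 and ACTA2 at 98.4 CPM per kilobase. MYL9 (61.0), TAGLN (45.9) and CALD1 (30.2) followed, then CNN1 (11.9) and ACTG2 (11.6). LMOD1 (1.32) and MYH11 (0.819), both genes of mature smooth muscle, stood lowest. At D21 the order differed. TPM1 was at 340 CPM per kilobase, TPM2 at 60.2 and MYL9 at 51.7, whereas ACTA2 was at 11.5, TAGLN at 7.62 and MYH11 at 0.0405. The canonical transcript of TAGLN (3786 bases) and those of the other genes were not checked against the isoforms used in these cells.

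To follow the genes over culture, D21, D25 and D29 were compared in set 2. Between D21 and D29, 7 of the 10 genes rose, LMOD1 fell, and MYL9 and TPM1 did not pass the test (limma, adjusted p under 0.05 over all 27650 genes). Over all genes, 10.0% were called higher (2778) and 8.33% lower (2303). With each library centred on its median these counts were 2408 and 4667, and the same 8 of the 10 genes were called. The median log2 fold change of the 10 genes was 1.42, against -0.02 over all genes. Of the genes that rose, ACTA2, ACTG2, MYH11, TAGLN, CNN1 and CALD1 passed the test at D25 already.

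ACTA2 stood at 19.6 and 11.5 CPM at D21, 108 and 112 CPM at D25, and 121 and 144 CPM at D29. The D21 libraries lay below all later ones, and the D29 libraries lay just above those of D25. Its log2(CPM + 1) rose by 3.05 ± 0.20 (SE) from D21 to D29 (limma, adjusted p = 1.27e-04) and by 2.79 ± 0.20 from D21 to D25 (adjusted p = 0.00102). ACTG2, the actin of enteric smooth muscle, had 2.90 and 0.906 CPM at D21, 19.1 and 18.6 CPM at D25, and 13.7 and 21.2 CPM at D29. The D25 values lay between those of D29, and the D21 libraries differed from each other more than for any other of the 10 genes on the log2 scale (SD 0.73, n = 2). ACTG2 rose by 2.72 ± 0.32 from D21 to D29 (limma, adjusted p = 0.0011). MYH11 was close to the detection limit at D21, with 0.231 and 0.326 CPM (5 and 9 reads). It stood at 7.13 and 7.85 CPM at D25 and at 5.78 and 5.50 CPM at D29. MYH11 was the only one of the genes that rose whose D29 libraries both lay below both D25 libraries, although that step did not pass the test (log2 fold change -0.35, limma, adjusted p = 0.281). From D21 to D29 it rose by 2.36 ± 0.15 (limma, adjusted p = 1.13e-04). On this log2(CPM + 1) scale folds of weakly expressed genes come out smaller. Over the alternative settings given below, the change of MYH11 ranged from 2.26 to 4.34. MYL9 had 138 and 150.3 CPM at D21, 186 and 204 CPM at D25, and 187 and 153 CPM at D29. Its D29 value differed from D21 by 0.23 ± 0.11 on the log2 scale (limma, adjusted p = 0.183).

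Among the actin-binding proteins, TAGLN stood at 32.8 and 24.9 CPM at D21, 127 and 137 CPM at D25, and 148 and 199 CPM at D29. It rose by 2.55 ± 0.16 from D21 to D29 (limma, adjusted p = 1.05e-04). The D21 libraries lay apart from the rest, as for ACTA2. CNN1 had 4.43 and 3.05 CPM at D21, 13.1 and 13.2 CPM at D25, and 15.7 and 19.96 CPM at D29, and rose by 1.99 ± 0.18 (limma, adjusted p = 3.09e-04). CALD1 had 84.4 and 82.8 CPM at D21, 138 and 131 CPM at D25, and 152 and 150.4 CPM at D29, and rose by 0.85 ± 0.06 (limma, adjusted p = 1.78e-04). For both genes the days did not overlap, nor did they for ACTA2, TAGLN, MYH11 and TPM2. How often this held among all genes was not counted, so nothing about these genes was read from it. LMOD1 went the other way, with 11.3 and 12.2 CPM at D21, 7.34 and 5.74 CPM at D25, and 5.15 and 5.21 CPM at D29. It fell by 1.04 on the log2 scale from D21 to D29 (SE 0.15, limma, adjusted p = 0.00244) and its days did not overlap either.

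The tropomyosins differed from each other. TPM2 had 72.2 and 71.1 CPM at D21, 84.0 and 90.1 CPM at D25, and 116 and 120 CPM at D29. It was the only one of the 10 genes that passed the test between D25 and D29 (log2 fold change 0.43 ± 0.07, limma, adjusted p = 0.0254), where 1.25% of all genes were called higher and 0.825% lower. That call was lost on leaving out any library but the first of D29, and with a variance model that has no trend. TPM1, the most abundant of the genes, stayed between 366 and 419.9 CPM on all days (D29 against D21 -0.15 ± 0.08, limma, adjusted p = 0.245). Between D21 and D25, 6 genes rose and LMOD1 fell, against 3.39% of all genes called higher (937) and 1.99% lower (549), or 971 and 1281 with median centring. The LMOD1 call at D25 was lost on leaving out any of the D21 or D25 libraries.

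**Figure D1:**
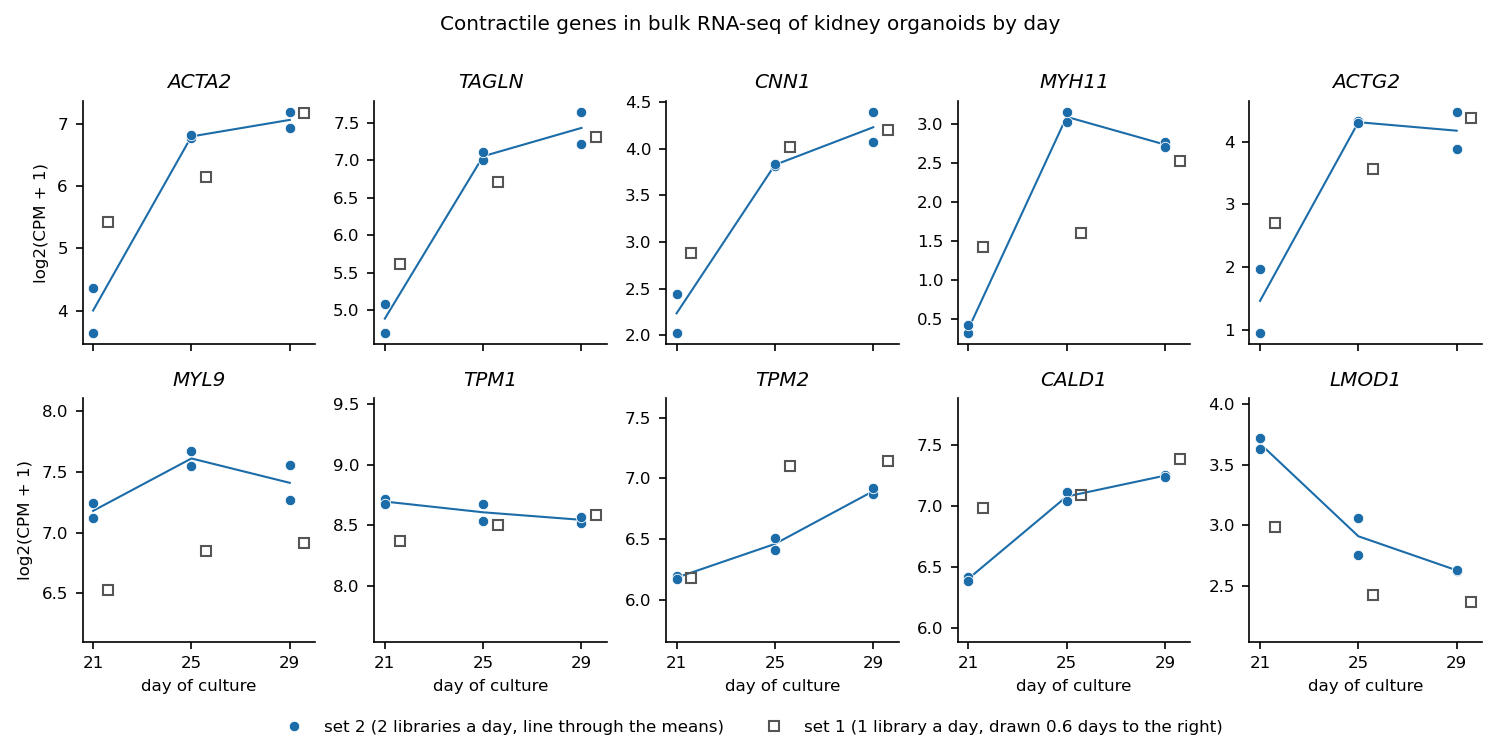
Level of each gene in bulk RNA as log2(CPM + 1), vertical axes set per gene, against day of culture. Filled circles are the libraries of set 2 with a line through their means, and open squares are the libraries of set 1, drawn to the right; ACTA2, TAGLN, CNN1, MYH11 and ACTG2 rose steeply from D21 to D25 in set 2, and LMOD1 fell.

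Set 1, with 1 library a day and hence no test, gave the same direction from D21 to D29 for 9 of the 10 genes, TPM1 being the exception. MYL9 is among the 9, although it had not passed the test in set 2. Neither the share of all genes that agreed in direction nor the share higher at D29 in set 1 was counted. In set 1, 9 genes were higher at D29 than at D21, with a median difference of 1.03 on the log2 scale, and 5 were over 2-fold higher (a difference over 1 on that log2(CPM + 1) scale, where folds of weakly expressed genes come out smaller), against 3.09% of all genes over 2-fold higher and 1.41% over 2-fold lower. ACTA2 went from 42.0 CPM at D21 to 69.5 CPM at D25 and 144 CPM at D29. TAGLN went from 48.3 to 104 to 158 CPM and ACTG2 from 5.47 to 10.8 to 19.9 CPM on these days. In these genes the D21 library of set 1 was higher than both D21 libraries of set 2, and the increase was spread over both steps. MYH11 had 1.67, 2.02 and 4.74 CPM at D21, D25 and D29, so that most of its difference lay between D25 and D29, a step over which it was lower in set 2. LMOD1 went from 6.94 to 4.37 to 4.16 CPM. From D21 to D25, 2 genes (TAGLN and CNN1) were over 2-fold higher, against 1.35% of all genes higher and 0.378% lower, and from D25 to D29 only ACTA2 was, against 0.393% and 0.537%. The 2 sets were normalized separately and no test was run between them.

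Lists of related genes, also chosen with earlier results of these data known, were read over the same days. Of 20 further smooth muscle contractile and cytoskeletal genes, 16 were higher at D29 than at D21 in set 2 and none was lower, with a median log2 fold change of 0.92. SYNPO2 (2.84) and FHL2 (1.88) changed most, and DES, the gene of the intermediate filament desmin, rose by 1.44 on the log2 scale. Of 8 regulators, none was higher, and MYOCD was lower (-0.75, limma, adjusted p = 0.0244), whereas SRF differed by -0.10 (limma, adjusted p = 0.434). Of 12 non-muscle counterparts of the genes, 5 were higher, among them CNN3 (0.79), TPM4 (0.47) and MYH10 (0.40). Striated muscle counterparts were higher in 5 of the 8 listed, led by the skeletal actin ACTA1 (1.62), and 9 of 10 myofibroblast matrix genes were higher, among them POSTN (2.51), TNC (2.41), COL1A1 (2.18) and FN1 (2.11). The remaining matrix gene, CCN2, was lower (-2.08).

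Markers of several cell types moved over the same days. Stromal markers were higher at D29 than at D21 in 7 of 8 genes, and their summed level ranged from 4220 to 4820 CPM at D21 and from 14200 to 17700 CPM at D29. This list shares genes with the matrix genes, COL1A1 and POSTN among them, so the counts are not independent. The skeletal muscle markers likewise share genes with the striated muscle counterparts, ACTA1 among them. Mural cell markers (pericytes and vascular smooth muscle) were higher in 5 of 7 listed genes, but their sum ranged from 855 to 920 CPM at D21 and from 979 to 1050 CPM at D29. Neuron markers were higher in 7 of 8 genes, with sums of 398 and 428 CPM at D21 and 732 and 1120 CPM at D29. Podocyte markers were lower in 6 of 9 genes, and proximal tubule and early nephron markers in 4 of 7 listed genes each. Their part in the change of the contractile genes was not tested. Skeletal muscle markers were higher at D29 than at D25 in 8 of 12 genes, from 53.8 and 55.4 CPM to 118 and 162 CPM in sum, beside the step in TPM2, and their part in it was not tested.

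**Figure D2:**
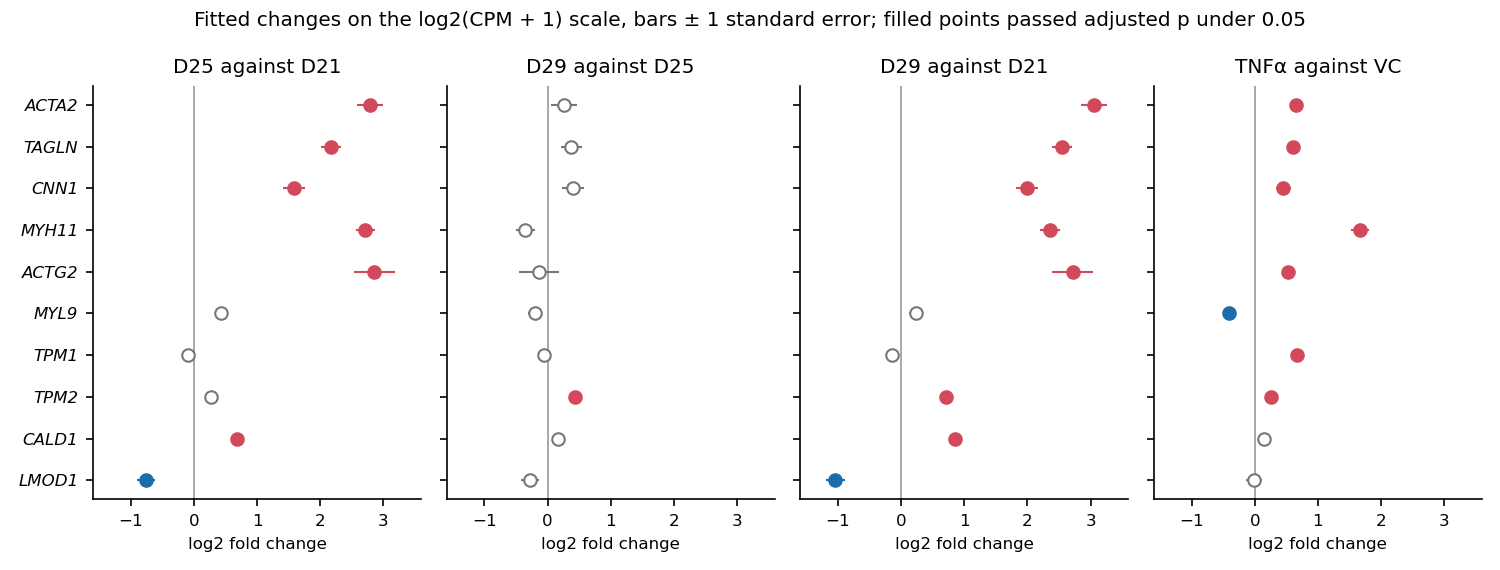
Fitted log2 fold change of each gene (horizontal axis) for D25 against D21, D29 against D25 and D29 against D21 in set 2 and for TNFα against VC, with bars of 1 standard error. Filled points passed an adjusted p of 0.05, red higher and blue lower; 7 genes rose from D21 to D29, CALD1 among them, 7 rose with TNFα, TPM1 among them and CALD1 not, and TPM2 alone passed between D25 and D29.

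To ask how the genes responded to an inflammatory cytokine, TNFα was compared with VC in bulk RNA of D25 organoids, with the 2 times fitted together. With TNFα, 7 of the 10 genes rose, MYL9 fell, and CALD1 and LMOD1 did not pass the test, against 8.42% of all 21093 genes called higher (1776) and 10.8% lower (2285). On recovered reads, edgeR called 2322 genes higher and 2133 lower, and DESeq2 1198 and 970. The median log2 fold change of the genes was 0.49, against -0.03 over all genes. Each treatment had 1 library at each time, so the times stand in for replicates. This leaves 1 residual degree of freedom per gene before the variances are moderated over genes. After moderation the p-values rest on how TNFα differences varied between the times over many genes of similar level, more than in the gene itself. They do not rest on a spread of replicates.

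MYH11 changed most, with 0.884 CPM with VC and 6.72 CPM with TNFα at 24 h, and 0.901 and 3.73 CPM at 48 h. Both TNFα libraries lay above both VC libraries, and the log2 fold change was 1.67 ± 0.15 (SE, limma, adjusted p = 2.06e-07). It was also the only one of the genes over 2-fold higher at either time, where 1.28% of all genes were over 2-fold higher and 0.730% lower at 24 h, and 1.07% and 0.754% at 48 h. Between the VC libraries at 48 h and 24 h, none of the 10 genes was over 2-fold apart, against 0.152% of all genes higher and 0.0569% lower. ACTA2 stood at 92.2 CPM with VC and 179 CPM with TNFα at 24 h, and at 85.5 and 109.9 CPM at 48 h (0.65 ± 0.10, limma, adjusted p = 6.87e-05). Its difference on the log2 scale was 0.95 at 24 h and 0.36 at 48 h. ACTG2 had 12.1 and 18.0 CPM at 24 h and 9.65 and 14.4 CPM at 48 h (0.53 ± 0.10, limma, adjusted p = 6.29e-04), the same log2 difference of 0.53 at both times. MYL9 was the exception among the filament genes, with 197 CPM with VC and 161 CPM with TNFα at 24 h, and 202 and 139 CPM at 48 h. It fell by 0.41 on the log2 scale (SE 0.07, limma, adjusted p = 2.41e-04), and both TNFα libraries lay below both VC libraries.

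TPM1, which had not passed the test by day, rose with TNFα from 415 to 654 CPM at 24 h and from 382 to 616 CPM at 48 h (0.67 ± 0.06, limma, adjusted p = 2.76e-07). TPM2 went from 126 to 162 CPM at 24 h and from 143 to 157 CPM at 48 h (0.25 ± 0.07, limma, adjusted p = 0.0125). TAGLN went from 116 to 202 CPM at 24 h and from 103 to 138 CPM at 48 h (0.60 ± 0.08, limma, adjusted p = 1.74e-05). For these 3 genes the treatments did not overlap, nor did they for ACTA2, ACTG2, CNN1 and CALD1. How often this held among all genes was not counted, so nothing about these genes was read from it. CNN1 had 9.41 CPM with VC and 17.0 CPM with TNFα at 24 h, and 13.3 and 14.6 CPM at 48 h (0.46 ± 0.13, limma, adjusted p = 0.0161). Its VC libraries differed from each other by 0.46 on the log2 scale, as much as the fitted effect. CALD1 had 138 and 159 CPM at 24 h and 153 and 165 CPM at 48 h (0.15 ± 0.06, limma, adjusted p = 0.0984). LMOD1 had 7.20 and 6.20 CPM at 24 h and 7.15 and 8.14 CPM at 48 h (-0.01 ± 0.12, limma, adjusted p = 0.967). With treatment alone and no time term, 3 calls were left, MYH11 and TPM1 higher and MYL9 lower, and over all genes 637 were called higher and 673 lower.

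**Figure D3:**
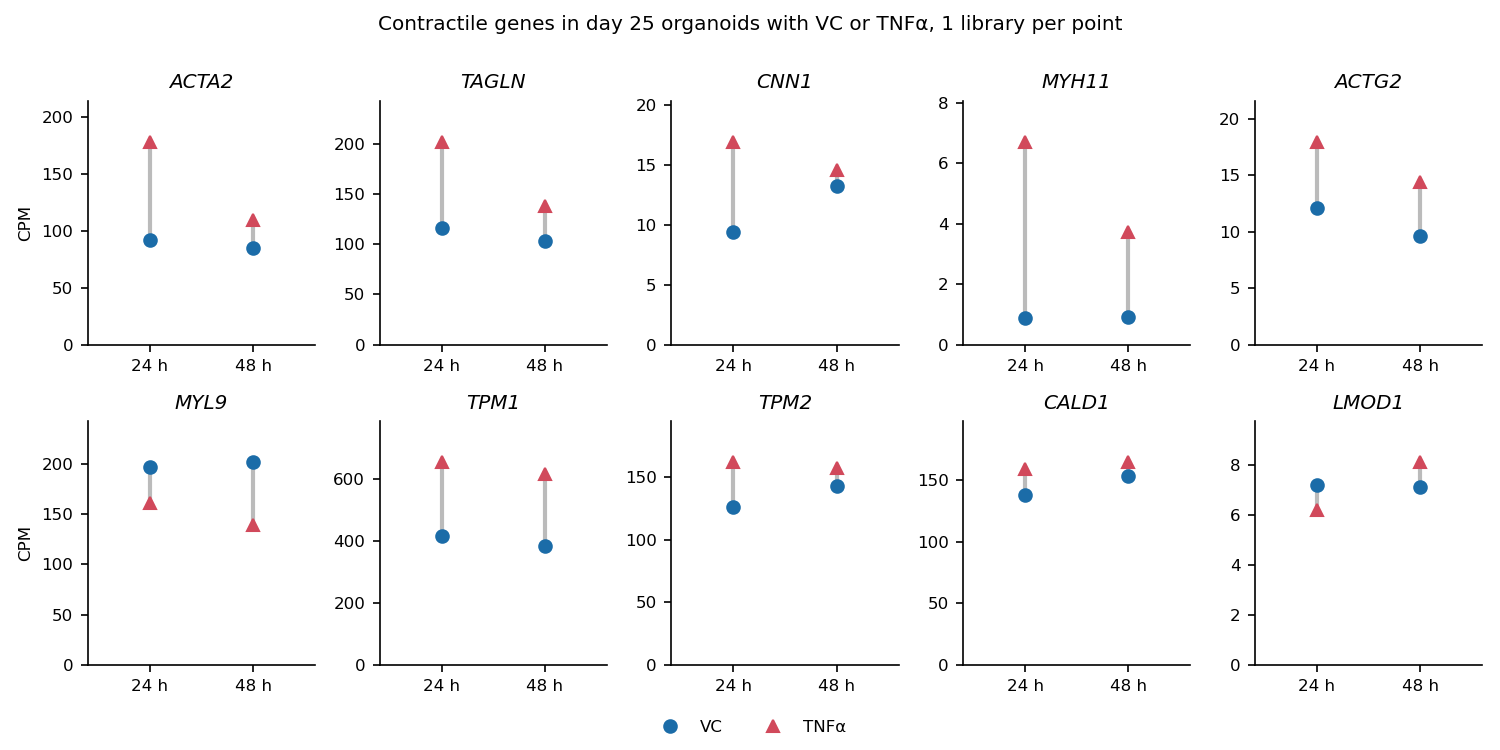
CPM of each gene in the 4 bulk libraries given VC (blue circles) or TNFα (red triangles) for 24 h or 48 h, 1 library per point, with vertical axes that start at 0 and are set per gene. The TNFα point lay above the VC point at both times for 8 genes, below it for MYL9, and on different sides for LMOD1.

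The same lists were read for TNFα. Of the 20 further smooth muscle genes, 6 were higher and 1 lower, with a median log2 fold change of 0.17. CSRP1 (0.70), PLN (0.61) and ACTN1 (0.41) were among the higher ones. Of the 8 regulators, KLF5, a factor known to act on smooth muscle genes, was higher (0.33, limma, adjusted p = 0.00579), and MYOCD was at -0.28 (limma, adjusted p = 0.247). Non-muscle TAGLN2 (0.47), CNN3 (0.35) and TPM4 (0.19) were the 3 of 12 counterparts called higher. Matrix genes were higher in 7 of 10, among them TNC (0.89) and FN1 (0.63). Podocyte markers were lower in 9 of 9 genes, their sum ranging from 6640 to 7140 CPM with VC and from 3230 to 4360 CPM with TNFα, beside the fall in MYL9. Proximal tubule markers were lower in 6 of 7 listed genes (sums of 723 and 718 CPM with VC, 384 and 445 CPM with TNFα) and endothelial markers in 5 of 8. Glia or Schwann markers were higher in 6 of 7 genes and lower in 1, with a median log2 fold change of 0.51, although their sums were 193 and 199 CPM with VC and 136 and 193 CPM with TNFα. Mural markers were higher in 4 of 7 listed genes and lower in 1, with sums of 599 and 650 CPM with VC and 642 and 727 CPM with TNFα. Stromal markers were higher in 3 of 8 genes and lower in 2, with sums of 6560 and 8080 CPM with VC and 8210 and 8560 CPM with TNFα. Their part in the change of the contractile genes was not tested.

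To place the genes in cell types, the cells of both single-cell libraries were clustered, and clusters were named from marker genes. The clustering left out the 10 genes, mitochondrial genes and the lists of related genes read above. The matrix genes and genes that also served as markers were kept. Named classes covered 88.1% (VC) and 89.9% (TNFα) of all cells. No cluster was named mural. No list of smooth muscle markers was used, so no cluster could be named smooth muscle. Cluster 7 had 8 of 9 podocyte markers raised (6310 CPM in sum with VC, 3620 CPM with TNFα) but no podocyte marker among its 10 leading genes, which held CLDN5 and KRT19 of other lists, so it was left unnamed and outside the podocyte-like class. Its 483 VC and 1285 TNFα cells were at 479 and 290 CPM for MYL9 and at 776 and 892 CPM for TPM1. In the stromal-like class, which had 7 of 8 stromal markers raised, mural markers summed to 235 CPM in the VC library, against 7410 CPM for stromal markers. With 1 library per treatment there is no test. Levels are CPM, here out of all UMIs of the class, and intervals are exact and cover counting error only.

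In the VC library, the stromal-like class (2584 cells, 21.7% of the cells) held 62.4% of all ACTA2 UMIs, 54.4% of those of TAGLN, 58.4% of those of CNN1 and 58.5% of those of ACTG2. It held 33.8% of the UMIs of TPM1, 23.2% of those of TPM2, 19.2% of those of LMOD1 and 18.3% of those of MYL9. Of CALD1 it held 12177 of 32958 UMIs, and of MYH11 38 of 96. So the actins, CNN1 and TAGLN were mostly stromal-like, and the other genes were spread over more classes. Levels in stromal-like cells were 415 CPM for ACTA2, 800 CPM for TAGLN, 107 CPM for ACTG2, 27.7 CPM for CNN1 and 2.74 CPM for MYH11 (38 UMIs). Neuron-like cells, which should lack most of these genes and join 2 clusters (837 and 919 VC cells, 1473 and 1103 TNFα cells), were lower by 26.1-fold for ACTA2 and 17.5-fold for TAGLN, and by 5.28-fold for TPM1.

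In the VC library stromal-like cells were the highest named class for 2 of the 10 genes. In the TNFα library they were the highest named class for 6, ACTA2, TAGLN, CNN1, ACTG2, TPM1 and CALD1. There CNN1 was at 1.17 times the level of proliferating-like cells, with a 95% counting interval that included 1 (0.968 to 1.42). For ACTG2, unnamed cluster 14 was higher, at 68.8 CPM against 62.7 CPM in stromal-like cells. In the VC library the endothelial-like class, 373 cells with a median of 939 UMIs, was at 577 CPM for ACTA2, 1.39 times the stromal-like level (95% counting interval 1.24 to 1.56). It was at 1050 CPM for TAGLN (1.31 times, 1.2 to 1.42) and 251 CPM for ACTG2 (2.36 times, 1.96 to 2.81). For CNN1 and MYH11 the intervals of this ratio included 1. The class had 5 of 8 endothelial markers raised, and its endothelial markers summed to 824 CPM and its stromal markers to 1620 CPM. Without alignment of the libraries, the stromal-like class was the highest named class for 7 of the 10 genes in place of 2, so this count depends on the clustering. Whether an endothelial-like class was still named there was not checked. The count stayed at 2 at resolution 0.5, without the highest doublet scores, and in cells with over 1000 genes or at least 1500 UMIs. MYL9 was highest in podocyte-like cells, at 767 CPM against 275 CPM in stromal-like cells. TPM2 was highest in skeletal muscle-like cells, at 3400 CPM, followed by myogenic progenitor-like cells at 1050 CPM, and stood at 739 CPM in stromal-like cells. LMOD1 was highest in myogenic progenitor-like cells, at 18.3 CPM against 5.11 CPM in stromal-like cells. TPM1 (1090 CPM) and CALD1 (877 CPM) were highest in stromal-like cells.

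**Figure D4:**
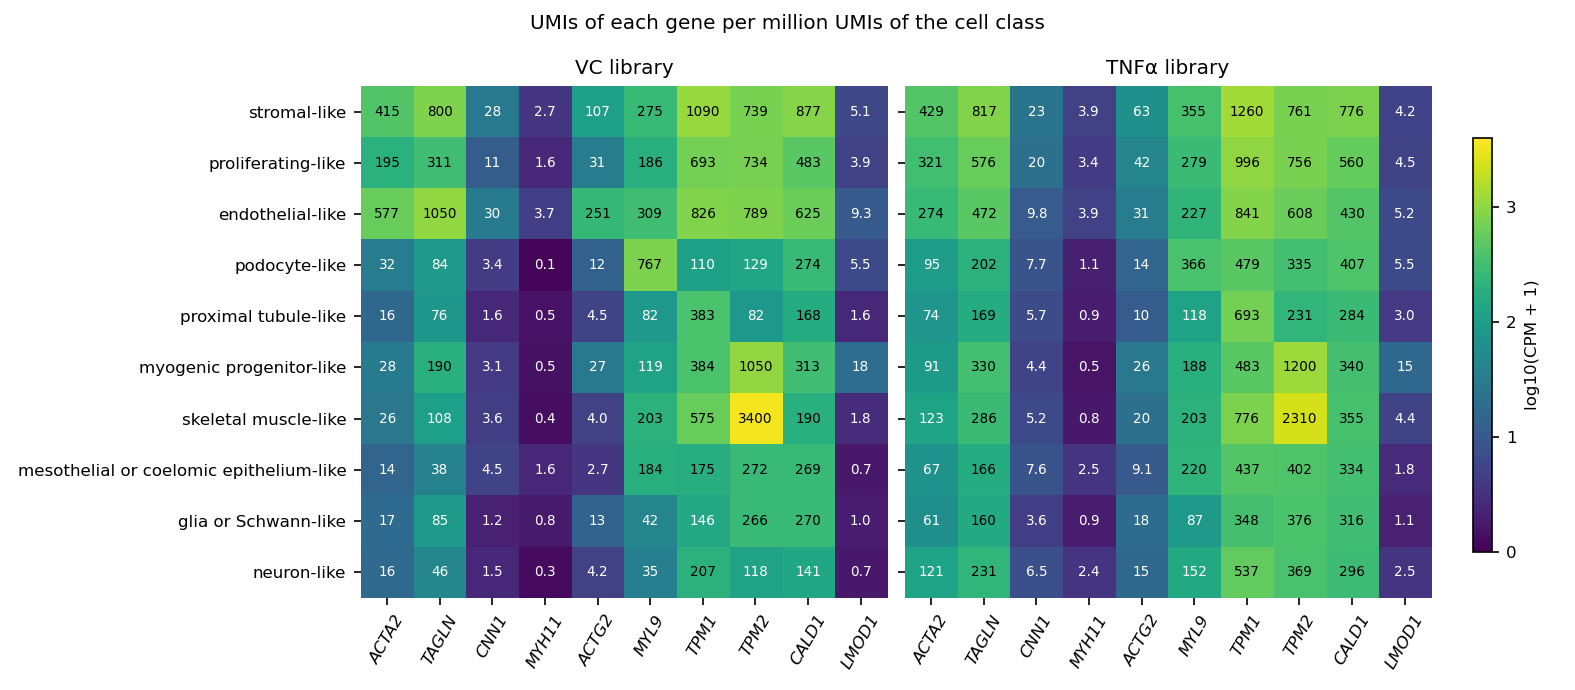
Level of each gene (columns) as CPM of the UMIs of each named cell class (rows) in the VC and the TNFα library, with the value written in each cell and the color on a log10(CPM + 1) scale. ACTA2, TAGLN, CNN1 and ACTG2 were high in stromal-like and, with VC, endothelial-like cells, MYL9 in podocyte-like cells and TPM2 in skeletal muscle-like cells.

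Across the 30 sums of a cluster in a library, the genes followed each other to different degrees. These points share libraries and depth, so the correlations are descriptions. On log2(CPM + 10), TAGLN (Pearson r = 0.915), ACTA2 (0.913), CNN1 (0.864), CALD1 (0.843) and ACTG2 (0.82) followed the mean of the other genes most closely. TPM1 (0.683) and MYH11 (0.593) were intermediate, and MYL9 (0.486), LMOD1 (0.415) and TPM2 (0.41) followed it least. Among 6823 other genes with a mean of at least 20 CPM, the 8 whose pattern was most like the mean of the 10 genes were IGFBP3 (0.891), LOXL2 (0.883), EMILIN1 (0.874), CXCL12 (0.869), FLRT2 (0.868), MYL12A (0.867), HIC1 (0.861) and FHL2 (0.856).

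UMIs of the genes were also counted together in single stromal-like cells, each thinned to 1500 UMIs to equal depth, with neuron-like cells as background. Of VC cells with an ACTA2 UMI, 73.2% had a TAGLN UMI, against 29.1% of cells without ACTA2. For ACTG2 these shares were 13.8% and 1.98%. In the TNFα library, 63.3% of cells with an ACTA2 UMI had TAGLN, against 39.9% of those without, and the shares for ACTG2 were 11.8% and 3.01%. In neuron-like cells the shares for TAGLN were 26.3% of the 38 cells with ACTA2 and 3.43% of the others with VC, and 42.3% and 24.5% with TNFα, so that joint detection was also present in the background, and more of it with TNFα. At this depth a stromal-like cell had a median of 3 of the 10 genes in both libraries, against 0 (VC) and 2 (TNFα) in a neuron-like cell. With TNFα the median was also 3 in proliferating-like, skeletal muscle-like and endothelial-like cells and in unnamed cluster 14. Of stromal-like cells, 1.23% with VC and 1.93% with TNFα had 7 or more. Of endothelial-like cells, 6.33% of 79 with VC and 0.494% of 810 with TNFα did.

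With TNFα, levels of ACTA2, TAGLN and TPM2 in the stromal-like class (4357 cells with TNFα) lay close to those with VC. ACTA2 was at 415 CPM with VC and 429 CPM with TNFα (ratio 1.03, 95% counting interval 0.997 to 1.07), TAGLN at 800 and 817 CPM (1.02, 0.995 to 1.05) and TPM2 at 739 and 761 CPM (1.03, 1 to 1.06). MYL9 was at 275 and 355 CPM (1.29, 1.24 to 1.35) and TPM1 at 1090 and 1260 CPM (1.15, 1.13 to 1.18). ACTG2 was lower with TNFα, at 107 and 62.7 CPM (0.589, 0.543 to 0.639), as were CALD1 at 877 and 776 CPM (0.885, 0.863 to 0.908) and CNN1 at 27.7 and 23.4 CPM (0.844, 0.73 to 0.977). MYH11 was at 2.74 and 3.90 CPM (1.43, 0.936 to 2.2), on 38 and 61 UMIs, and LMOD1 at 5.11 and 4.22 CPM (0.826, 0.582 to 1.17). A difference of MYH11 or LMOD1 was not detectable at this depth. Between 2 single libraries these ratios compare the libraries, not the treatments.

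Summed over the whole library, 10 of 10 genes were higher in the TNFα library, but the share of all genes higher there was not computed. The counting intervals of the libraries overlapped for ACTG2 (25.2 CPM with VC, 27 CPM with TNFα) and LMOD1 (3.67 and 4.28 CPM). ACTA2 was at 91.8 CPM with VC and 175 CPM with TNFα, TAGLN at 203 and 355 CPM, TPM1 at 446 and 753 CPM, and MYH11 at 0.954 and 1.83 CPM. MYL9 was at 207 and 247 CPM, the opposite direction from the bulk libraries. The share of ACTA2 UMIs that lay in stromal-like cells was 62.4% with VC and 42.0% with TNFα. Outside the stromal-like class most ratios were above 1. ACTA2 was at 15.9 CPM with VC and 121 CPM with TNFα in neuron-like cells (7.6, 6.56 to 8.84), and its ratio was 4.80 in proximal tubule-like and 4.85 in skeletal muscle-like cells. Over the 10 named classes, the counting interval of the ratio lay above 1 in 8 classes for ACTA2, TAGLN and CALD1 and in 9 classes for TPM1. How often this held among all genes was not counted either. In podocyte-like cells TPM1 went from 110 to 479 CPM (4.36, 4.07 to 4.68), while MYL9 went from 767 to 366 CPM (0.477, 0.46 to 0.496). The podocyte markers of these cells (926 with VC, 3642 with TNFα) went from 9670 to 4780 CPM in sum, and their part in the ratio of MYL9 was not tested. In endothelial-like cells, which had a median of 939 UMIs with VC and 1747 with TNFα, ACTA2 went from 577 to 274 CPM (0.475, 0.409 to 0.552) and ACTG2 from 251 to 31.3 CPM (0.125, 0.0878 to 0.175).

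Markers of stromal cells were higher with TNFα in some of these classes and near their VC level in others. Their sum was 446 CPM in neuron-like cells with VC and 1540 CPM with TNFα (3.45 times), 338 and 1090 CPM in proximal tubule-like cells, and 549 and 1730 CPM in skeletal muscle-like cells, while it was 7410 and 4830 CPM in stromal-like cells (0.652 times). The marker ratio was 1.2 in glia or Schwann-like, 1.07 in myogenic progenitor-like, 1.06 in mesothelial or coelomic epithelium-like and 0.989 in proliferating-like cells. ACTA2 had ratios of 3.59, 3.19, 4.74 and 1.64 in these classes. The markers were at 1.52 times in podocyte-like cells (ACTA2 2.92) and at 1.54 times in endothelial-like cells (ACTA2 0.475). In neuron-like cells the ratio of ACTA2 to TAGLN was 0.347 with VC and 0.523 with TNFα, and in stromal-like cells it was 0.519 and 0.525. Over stromal-like cells the level of ACTA2 was 26.1 times that of neuron-like cells with VC and 3.55 times with TNFα. The part of RNA from stromal-like cells in the levels of other classes was not tested.

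Shares of stromal-like cells with a UMI, thinned to 1500 UMIs, were 17.2% with VC (29.6% unthinned) and 29.1% with TNFα (40.2% unthinned) for ACTA2. In neuron-like cells, whose median depth was 6315 UMIs with VC and 2389 with TNFα against 4812 and 2708 in stromal-like cells, these shares were 2.40% and 16.1%. For TAGLN they were 36.7% and 46.7% in stromal-like cells and 3.98% and 27.3% in neuron-like cells. The background share thus rose along with the stromal-like share. For MYH11 they were 0.0818% and 0.551% in stromal-like cells, against 0.127% and 0.466% in neuron-like cells. The VC shares of MYH11 rest on 2 of 2444 stromal-like and 2 of 1581 neuron-like cells, too few to rank these classes. Over all UMIs, the CPM of MYH11 with VC was 9.3 times as high in stromal-like as in neuron-like cells (counting interval 3.35 to 35.9). That ratio rests on 38 and 4 UMIs, and with TNFα it was 1.61 (0.965 to 2.78). The thinning left out 140 of the VC stromal-like cells and no TNFα cell. Since shares of ACTG2 and CNN1 were higher with TNFα while their CPM was lower, no order was read from the shares. The share of LMOD1 was also higher with TNFα, whereas the interval of its CPM ratio included 1.

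**Figure D5:**
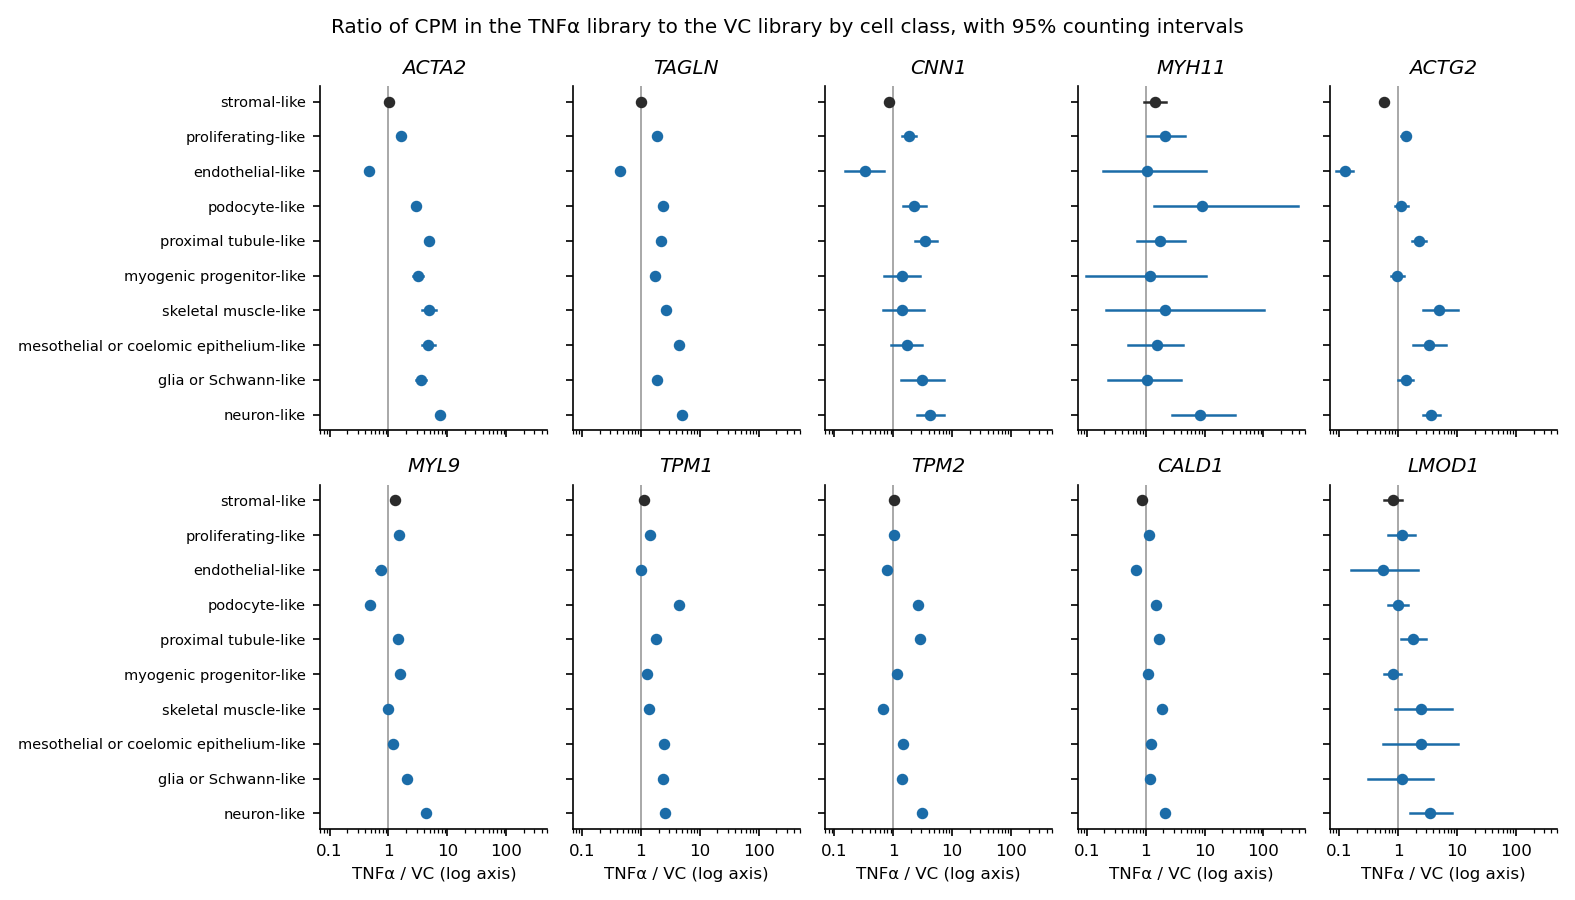
Ratio of CPM in the TNFα library to CPM in the VC library (horizontal log axis) for each gene and named cell class, with 95% counting intervals, and the stromal-like class in black. For ACTA2 the stromal-like ratio was 1.03, the neuron-like ratio 7.6 and the endothelial-like ratio 0.475.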

How the data were processed

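The study measured bulk RNA (NEBNext Ultra II libraries, paired reads of 150 bases) and single-cell RNA (10x 3' v3). The deposited bulk values are log2(CPM + 1), made by the authors with STAR 2.7.8a on Ensembl GRCh38 release 104, HTSeq counts and voom normalization. Adding 0.5 to each count explained 100.0% of values as whole reads within 0.01. The deposited single-cell matrices hold UMI counts from Cell Ranger (6.0.1 in the headers, 2.1.1 in the submitters' processing notes). The genome build of these matrices was not used.

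Groups were taken from the labels. The 10 genes and all lists were chosen with earlier results of these data known. Named genes were the 10 members, the 8 genes most like them, and the largest and smallest changes of each list, except 1 gene that is not reported here. Bulk comparisons used limma 3.58.1 (eBayes with trend, two-sided, Benjamini-Hochberg over all genes, no filter), with 1 mean per day in set 2 and treatment plus time in the TNFα set. Recovered reads went to edgeR 4.0.16 and DESeq2 1.42.0 as alternatives, and edgeR called 3234 higher and 2318 lower genes for D29 against D21. Cells with over 500 genes were clustered with scanpy 1.11.5 and leidenalg 0.10.2 (2000 variable genes per library, 30 components, alignment by a reimplementation of Harmony, resolution 0.25). The variable genes left out the 10 genes, mitochondrial genes and the lists of smooth muscle, regulator, non-muscle and striated muscle genes. Genes of these lists that also served as markers, and the matrix genes, were allowed. A cluster was named when at least 3 markers had 20 CPM or more and were at least 1 higher on the log2 scale than in the other clusters, more of its markers were raised than of any other list, and no other list had more markers among its 10 leading genes by fold (clusters 7 and 12 failed the last point). Doublets were kept, since the automatic threshold of Scrublet called 0 cells in each library. Tests were checked on simulated data. Alternatives were normalization, added value, filter, variance model, pairing, replicates left out, clustering and depth.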

Additional observations from a re-analysis of the deposited data

Results flagged for a closer look

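The results in this section differed in direction between sets, times or cell classes. None of these differences was tested, since at least 1 side of each rests on single libraries.

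MYH11 was 0.92 higher at D29 than at D25 on the log2 scale in set 1 and -0.35 in set 2. TPM1 differed by 0.22 between D29 and D21 in set 1 and by -0.15 in set 2. With TNFα, LMOD1 differed by -0.19 at 24 h and by 0.16 at 48 h.

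Between the single-cell libraries, TNFα to VC ratios lay below 1 in some classes and above 1 in others, with counting intervals that exclude 1. ACTA2 was at 0.475 in endothelial-like cells and 7.6 in neuron-like cells, TAGLN at 0.451 and 5.04, CNN1 at 0.329 and 4.19, and CALD1 at 0.687 and 2.11 in the same classes. ACTG2 was at 0.125 in endothelial-like cells and 5.04 in skeletal muscle-like cells. MYL9 was at 0.477 in podocyte-like cells and 4.36 in neuron-like cells, and TPM2 at 0.679 in skeletal muscle-like cells and 3.12 in neuron-like cells. Stromal markers in neuron-like cells were 3.45 times as high with TNFα. Podocyte markers in podocyte-like cells went from 9670 to 4780 CPM in sum, and skeletal muscle markers in skeletal muscle-like cells from 13800 to 7620 CPM. The part of these markers in the ratios was not tested.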

How the results depend on the processing

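For the main counts, 47 alternatives gave a count within 1.5 times of the reported one, 7 gave fewer calls and 1 moved the count. These counts were not checked for a change of direction. On leaving out each library in turn, 8 to 9 members were called for D29 against D21 (1398 to 2964 of all genes higher and 960 to 2453 lower), 6 to 9 for D25 against D21 (191 to 1336 and 50 to 896) and 0 to 1 for D29 against D25 (0 to 1192 and 0 to 822). Without either D25 library, limma called 0 of all genes for D29 against D25, with 3383 and 3715 at an unadjusted p under 0.05. With all libraries, edgeR called 834 higher and 502 lower and DESeq2 812 and 466. The count of members for D29 against D25 also fell to 0 when eBayes was fitted without the trend, and leaving out the first D29 library kept TPM2. Treatment alone, without the time term, called 3 members for TNFα (637 of all genes higher and 673 lower). The cause of these changes was not tested. For TNFα, DESeq2 lost ACTA2 and CNN1, the fit without the trend lost CNN1 and TPM2, and edgeR added CALD1. For D25 against D21, edgeR, DESeq2, omission of the added 1 and the filter on low values added MYL9. Without alignment of the libraries, 7 members in place of 2 were highest in stromal-like cells. Among results for single genes, 469 alternatives left the call or value as reported, 12 gained a call, 19 lost one and 10 moved a value. A bulk change of sign without a call was counted as left as reported. For example, the log2 fold change of ACTG2 for D29 against D25 ranged from -0.43 to 0.16 over the alternatives.

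The numbers of the 2 libraries of a day pair nothing in the labels, and deviations of same-numbered libraries correlated at 0.102, 0.0611 and 0.202 over genes. With the replicate block, 8, 8 and 1 members were called for D29 against D21, D25 against D21 and D29 against D25, and calls over all genes were 3149 higher and 2907 lower, 1259 and 832, and 676 and 442.

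The Scrublet alternative could not be run as planned because no cell was called. In its place, chosen after seeing the data, the cells with the highest scores (1134 VC, 4291 TNFα) were left out, which took the log2 TNFα to VC ratio of ACTA2 in stromal-like cells from 0.05 to 0.12. Without alignment it was 0.28. Depth limits the rare genes most, since MYH11 rested on 38 and 61 UMIs in stromal-like cells.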
